A study of Mus musculus with 12 samples.

Results

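The enzymes described here carry nitrogen out of amino acids in the liver. The list held 9 genes of the urea cycle and of amino acid breakdown, chosen by name as textbook periportal or pericentral enzymes: *Cps1*, *Otc*, *Ass1*, *Asl*, *Arg1*, *Tat* and *Hal* for the periportal side and *Glul* and *Oat* for the pericentral side. The choice was made with earlier results of these data known. A gene was read from a probe set that names it alone, and where several did, from the one with the highest mean over the 6 arrays of that tissue. With this rule 8 of the 9 were measured, out of 17097 genes tested. *Glul* had no probe set under its name in the annotation used here and was not analysed here, so *Oat* was the only pericentral enzyme of the list with values.

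Amino acid breakdown releases ammonia, which is toxic, and hepatocytes dispose of it by 2 routes that lie in different parts of the liver lobule. Periportal hepatocytes, which meet the incoming blood first, carry the urea cycle and many amino acid degrading enzymes, a high-capacity route. Hepatocytes next to the central vein capture what remains as glutamine, and their gene programme depends on Wnt signalling through β-catenin.

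Livers came from female C57BL/6 mice aged 1.5 months, 3 wild type (WT) and 3 *Abcb11*-/-, with 1 array per mouse as the labels number them. *Abcb11* encodes the bile salt export pump of hepatocytes, and the mutant lacks it in the whole body. Lungs came from *Abcb11*+/- C57BL/6 offspring at embryonic days 17.5 and 18.5 (E17.5 and E18.5) and on the day of birth (PN0). All the offspring were heterozygous, born either to a WT mother crossed with an *Abcb11*-/- male or to an *Abcb11*-/- mother crossed with a WT male, with 1 array for each stage and mother, and how many animals each lung array stands for is not stated. Values are log2 signals after robust multiarray averaging, so a difference of 1 is a 2-fold difference. In the liver, p-values measure the spread between the arrays, and in this bulk tissue fewer cells of a type and less RNA per cell cannot be told apart.

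Some arrays stood apart. *Abcb11* itself was at 10.88 to 11.22 in WT liver and at 2.90 to 3.26 in *Abcb11*-/- liver, so the genotype labels held. *Abcb11*-/- replicate 2 was the highest of the 3 mutant livers for 7 of the 8 enzymes and for 48 of the 70 urea cycle and amino acid genes measured (68.6%), against 35.4% of the 6375 genes whose mean log2 signal over the liver arrays was 6 or more. Among the WT livers, replicate 1 was the highest for 6 of the 8 enzymes and for 35 of the 70 genes (50%), against 36.8% of the 6375. Lung arrays carried type II pneumocyte markers, all 5 of them expressed, at summed levels of up to 14.55. In the lung, the array of E17.5 offspring of the *Abcb11*-/- mother held hepatocyte markers at a summed level (log2 of the summed signals of 13 genes) of 14.37, against 10.21 on the E17.5 array of the WT mother, and skeletal muscle markers at 12.08 against 7.57. *Abcb11*-/- replicate 2 was singled out for its high values on the urea cycle and amino acid genes, so what its removal does to them is a description.

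Promoter windows were available for 6 of the 9 genes. Those of *Hal*, *Oat* and *Ass1* are shown because *Hal* was the member whose liver level passed the test with all arrays, *Oat* was the member called only without *Abcb11*-/- replicate 2, and *Ass1* and *Oat* were expressed in both tissues. Each is the RefSeq sequence of assembly GRCm38.p6 from 250 bases before to 50 bases after the annotated start, read 5′ to 3′ on the strand of the gene. Capitals mark matches, on either strand, to 6 motifs. These are the TATA box, with the letters TATAAA, and its variant with the letters TATAAG, the CCAAT box of the letters that name it, the GC box of letters GGGCGG, the C/EBP motif written TTGCNNAA, and the TCF/LEF motif written CTTTGA, which binds the DNA-binding partners of β-catenin.
Hal, chr10:93488518-93488817, plus strand: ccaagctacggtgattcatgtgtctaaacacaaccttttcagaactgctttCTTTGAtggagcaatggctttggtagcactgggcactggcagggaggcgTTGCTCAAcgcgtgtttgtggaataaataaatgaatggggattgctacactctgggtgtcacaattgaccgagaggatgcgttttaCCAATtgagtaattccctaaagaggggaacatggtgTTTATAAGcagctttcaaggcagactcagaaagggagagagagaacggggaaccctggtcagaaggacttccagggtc
Oat, chr7:132576349-132576648, minus strand: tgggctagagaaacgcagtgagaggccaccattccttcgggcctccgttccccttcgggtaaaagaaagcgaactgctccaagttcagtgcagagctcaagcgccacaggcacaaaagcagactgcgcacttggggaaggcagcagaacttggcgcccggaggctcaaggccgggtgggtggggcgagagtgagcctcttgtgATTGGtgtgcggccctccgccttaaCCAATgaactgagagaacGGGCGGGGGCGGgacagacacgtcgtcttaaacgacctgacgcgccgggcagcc
Ass1, chr2:31470020-31470319, plus strand: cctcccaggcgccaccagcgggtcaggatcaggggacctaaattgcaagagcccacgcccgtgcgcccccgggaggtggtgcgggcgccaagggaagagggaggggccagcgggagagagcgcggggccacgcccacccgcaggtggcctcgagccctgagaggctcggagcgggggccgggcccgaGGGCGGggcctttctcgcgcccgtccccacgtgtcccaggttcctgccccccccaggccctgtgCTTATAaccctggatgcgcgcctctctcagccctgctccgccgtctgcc

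The *Hal* window held a TATA box variant overlapping a TATA box on the other strand, 1 CCAAT box, 1 C/EBP motif and 1 TCF/LEF motif. The *Oat* window held 2 CCAAT boxes and 2 GC boxes and none of the other motifs, and the *Ass1* window held 1 TATA box variant and 1 GC box. Of 32851 promoter windows of the same length, 13.6% held the TATA box, 7.43% its variant, 37.4% the CCAAT box, 35.7% the GC box, 10.8% the C/EBP motif and 16% the TCF/LEF motif. These matches describe letters in the windows and are no evidence of binding.

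The first comparison asked how the periportal and pericentral enzymes stood in *Abcb11*-/- liver. One of the 8 enzymes rose and none fell. *Hal*, which takes ammonia off histidine in the first step of its breakdown, was 1.42-fold higher in *Abcb11*-/- than in WT liver. The 5 urea cycle enzymes did not pass the test in either direction, and *Oat* was lower in 2 of 3 mutant livers without passing it. Of all 17097 genes, 7.24% were called at an adjusted p under 0.05 in limma, 4.33% higher and 2.91% lower, so 1 call among 8 genes does not set the list apart from this background.

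*Cps1* makes carbamoyl phosphate from ammonia in mitochondria and is the entry step of the cycle. Its log2 signal was 13.14, 13.11 and 13.07 in WT and 13.02, 13.08 and 13.02 in *Abcb11*-/- liver, which overlap. The log2 difference was -0.07 ± 0.079 (SE, adjusted p = 0.71), and its 95% interval allowed from 0.840-fold to 1.09-fold of the WT level. *Otc*, which joins carbamoyl phosphate to ornithine, was at 12.29, 12.25 and 12.17 in WT and at 12.27, 12.20 and 12.18 in *Abcb11*-/- liver. The interval of its fold was 0.862 to 1.13 (log2 difference -0.02, adjusted p = 0.93), and its second, dimmer probe set differed by -0.01. Both mitochondrial enzymes of the cycle therefore had intervals that left out a rise or a fall of 1.42-fold, the size measured for *Hal*. *Cps1* lay 0.82 to 1.04 below the brightest probe set of each array, and whether its signal was compressed there was not tested.

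*Ass1* and *Asl* follow in the cytosol and build arginine by way of argininosuccinate. *Ass1* was at 11.76, 11.58 and 11.55 in WT and at 11.75, 12.09 and 11.71 in *Abcb11*-/- liver, a log2 difference of 0.22 ± 0.126 (SE, adjusted p = 0.38). *Asl* was at 10.89, 10.92 and 10.87 in WT and at 10.91, 11.50 and 10.99 in *Abcb11*-/- liver, a log2 difference of 0.24 ± 0.155 (SE, adjusted p = 0.44). For both genes the groups overlapped and *Abcb11*-/- replicate 2 was the highest of the 6 arrays. Without that array the log2 differences were 0.10 for *Ass1* and 0.06 for *Asl*.

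*Arg1*, which splits arginine into urea and ornithine and closes the cycle, was at 13.01, 13.03 and 13.02 in WT and at 12.83, 12.93 and 12.79 in *Abcb11*-/- liver. All the mutant values lay below all the WT values. The log2 difference was -0.17 ± 0.082 (SE), and limma did not call it (adjusted p = 0.29, interval 0.778-fold to 1.02-fold). Groups that do not overlap were found for *Arg1* and *Hal*, 2 of the 8 enzymes, and for 26% of all genes. *Cps1* and *Arg1* lay close to the top of the signal range, 0.82 to 1.18 below the brightest probe set of each array, and whether their signal was compressed there was not tested.

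*Tat*, the first enzyme of tyrosine breakdown, varied more within groups than between them. It was at 11.45, 10.87 and 10.91 in WT and at 10.96, 11.86 and 10.65 in *Abcb11*-/- liver, and the log2 difference was 0.08 ± 0.307 (SE, adjusted p = 0.92). Its sign rested on *Abcb11*-/- replicate 2, without which it was -0.27 ± 0.200 (SE, adjusted p = 0.50). With all arrays the interval ran from 0.644-fold to 1.74-fold, so a change of that size was not detectable with 3 mice per group.

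*Hal* was at 11.42, 11.26 and 11.16 in WT and at 11.68, 11.90 and 11.78 in *Abcb11*-/- liver, and no mutant array reached down to a WT array. The log2 difference was 0.51 ± 0.105 (SE, adjusted p = 0.030), with an interval of 1.20-fold to 1.68-fold. The call was lost when any array other than *Abcb11*-/- replicate 1 was left out, with log2 differences of 0.45 to 0.58. The genes whose level over the 6 liver arrays followed *Hal* most closely were *Trim14*, *Mtfmt* and *Mapre1*, with a root mean square difference of 0.054, 0.0582 and 0.0597 on the log2 scale after centring, against a median of 0.305 over 4729 genes. They were picked as the smallest differences, so a value far below the median was fixed by the choice. Whether they vary with *Hal* beyond the difference between genotypes was not tested.

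*Oat*, which converts ornithine on the way to glutamate and is enriched next to the central vein, was at 12.30, 11.82 and 11.91 in WT and at 10.92, 12.10 and 11.04 in *Abcb11*-/- liver. Replicates 1 and 3 of the mutant lay below every WT array, and replicate 2 lay inside the WT range. With all arrays the log2 difference was -0.66 ± 0.303 (SE, adjusted p = 0.27). Without *Abcb11*-/- replicate 2 it was -1.03 ± 0.158 (SE), a 2.04-fold lower level (adjusted p = 0.012 in limma). Replicate 2 was singled out for its high values on these genes, so this p-value is a description and no test. The log2 signal of *Hal* minus that of *Oat* on the same array was -0.88, -0.56 and -0.75 in WT and 0.76, -0.20 and 0.74 in *Abcb11*-/- liver. All mutant arrays lay above all WT arrays in this difference, and the same held for *Ass1* and *Asl* minus *Oat*. Among single genes, 26% had groups that do not overlap. The share over other pairs of genes was not computed, and these differences were not tested. For *Arg1* minus *Oat* (0.71, 1.21 and 1.11 in WT, 1.91, 0.83 and 1.75 in *Abcb11*-/- liver) and *Cps1* minus *Oat* (0.84, 1.29 and 1.16, then 2.10, 0.98 and 1.98), replicates 1 and 3 lay above the WT arrays and replicate 2 inside their range.

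**Figure D1:**
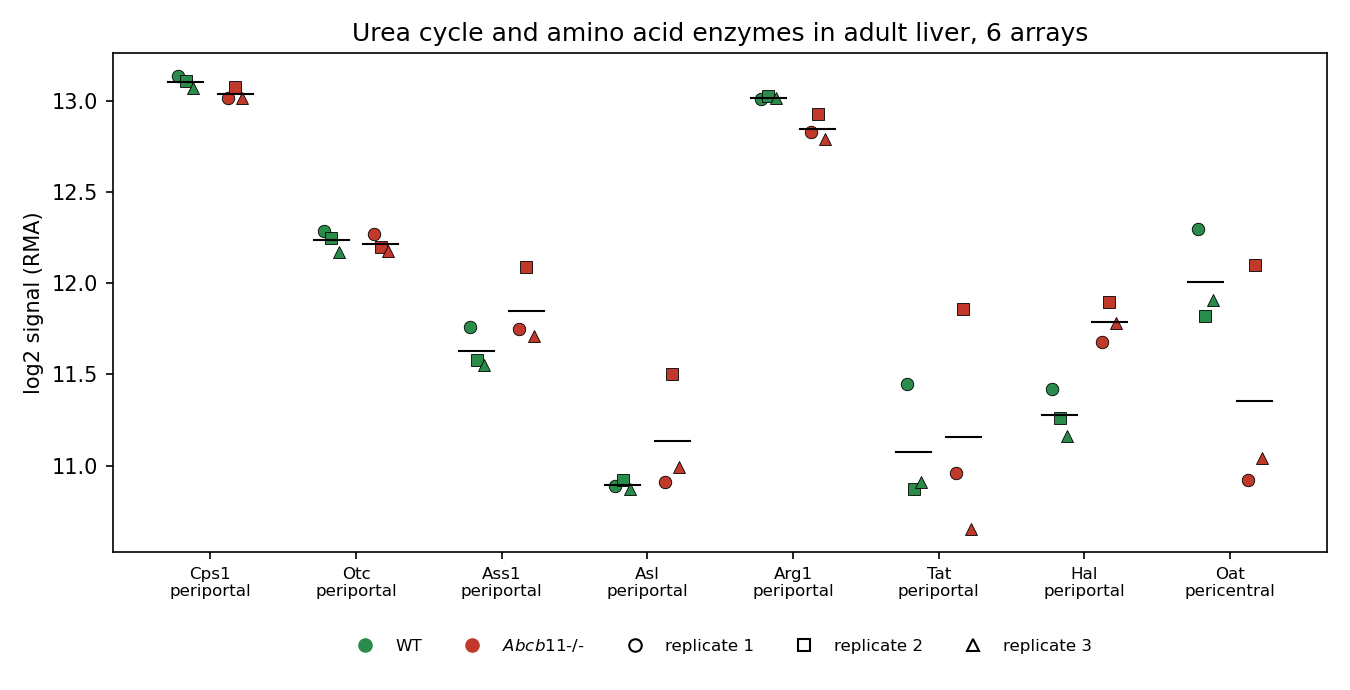
Log2 signal of the 8 measured enzymes (x axis, with the zone each is known for) on the 6 liver arrays. Green points are WT, red points *Abcb11*-/-, symbols mark the replicate and bars the group mean. The *Hal* groups separate upward and the *Arg1* groups downward, while the *Oat* square of *Abcb11*-/- replicate 2, at 12.10, stays among the WT values.

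Markers of the zones give the setting of these values. Their lists, too, were chosen with earlier results of these data known, so the counts are descriptions and no independent test. Of 15 pericentral markers measured, *Oat* among them, 10 fell and none rose (66.7%), and all 15 differences were negative, with a median log2 difference of -1.04 against 0.0033 over all genes. The glutamate transporter *Slc1a2* (-2.34, adjusted p = 0.040), the R-spondin receptor *Lgr5* (-1.94, adjusted p = 0.0075) and the cytochrome P450 *Cyp1a2* (-1.65, adjusted p = 0.0044) fell most. Of these, *Slc1a2* (WT mean 6.75) and *Lgr5* (WT mean 6.36) were dim, below a log2 value of 7 on every liver array. The mutant values of *Slc1a2* were spread, at 3.45, 5.80 and 3.98. *Cyp1a2* was bright (WT mean 12.61). Among the bright pericentral markers besides it, *Cyp2e1* (-0.50, adjusted p = 0.026) and *Rgn* (-0.49, adjusted p = 0.049) fell, and *Cyp2c29* (-0.36, adjusted p = 0.056) was not called.

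Of 14 periportal markers, 5 of them enzymes of the list, 4 rose (28.6%, where 4.33% of all genes rose) and none fell, with a median of 0.20. Of their differences, 10 were positive and 4 negative. Besides *Hal* these were the adhesion molecule *Cdh1* (1.53, adjusted p = 0.017), the aldehyde dehydrogenase *Aldh1b1* (1.20, adjusted p = 0.0026) and the lipid droplet protein *Hsd17b13* (0.79, adjusted p = 0.014). *Cps1*, *Ass1*, *Asl* and *Arg1* were among the periportal markers that did not pass the test. So was *Pck1*, a dim gene (WT mean 4.50) with the largest fall of the list (-0.78, adjusted p = 0.054). All its mutant arrays lay below all its WT arrays. *Hsd17b6* stood at -0.26 (adjusted p = 0.54).

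The mutant array that set *Oat* apart also had the smallest fall in the median of its zone. Relative to the WT mean, the median of the pericentral markers was -1.34, -0.59 and -1.06 in *Abcb11*-/- replicates 1, 2 and 3, and between -0.10 and 0.07 in WT. This median was lower in all the mutants, least in replicate 2. In that replicate *Rhbg* (7.70) lay above every WT array (7.39, 7.14 and 7.61), and *Oat* lay inside the WT range. For 13 of the 15 pericentral markers all mutant arrays, replicate 2 included, lay below all WT arrays. Of all genes, 26% had groups that do not overlap in either direction. Without replicate 2, 12 pericentral markers fell, where 3.63% of all genes fell.

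**Figure D2:**
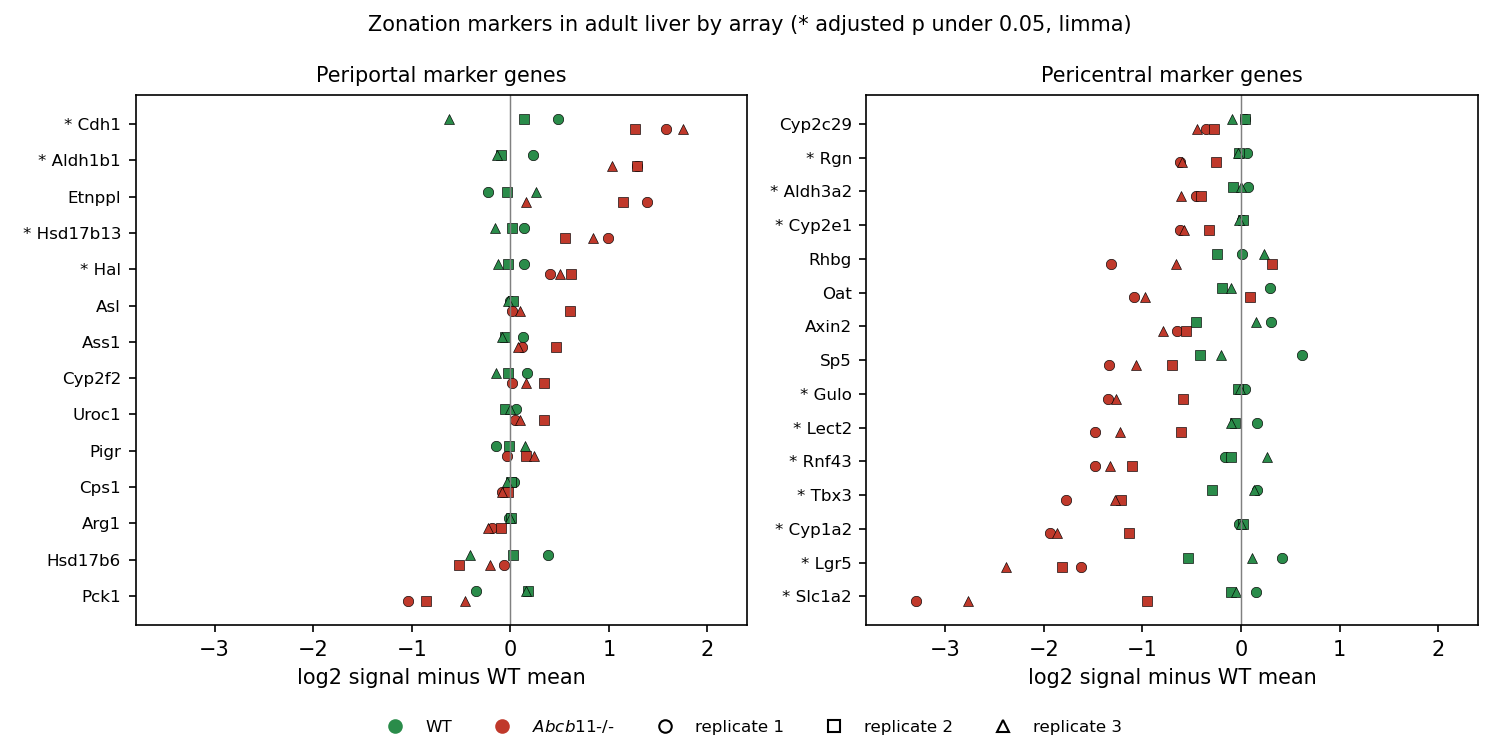
Log2 signal minus the WT mean for each periportal (left) and pericentral (right) marker gene on the 6 liver arrays. Green is WT, red *Abcb11*-/-, symbols mark the replicate, and a star marks an adjusted p under 0.05 in limma. Red points lie left of 0 for most pericentral genes, with the squares of replicate 2 often nearest to 0, and periportal enzymes of the urea cycle scatter around 0.

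Around the cycle itself stand the genes that feed it, and of its 10 measured genes none passed the test in either direction (median log2 difference -0.12). *Slc25a13*, the mitochondrial exporter of aspartate, was at 10.96, 10.78 and 10.80 in WT and at 10.51, 10.50 and 10.50 in *Abcb11*-/- liver, a log2 difference of -0.34 ± 0.087 (SE, adjusted p = 0.059). *Car5a*, a mitochondrial carbonic anhydrase that supplies bicarbonate to *Cps1*, was at 9.68, 9.59 and 9.64 in WT and at 8.75, 9.39 and 8.87 in *Abcb11*-/- liver (-0.63 ± 0.163, adjusted p = 0.062). In both genes every mutant array lay below every WT array although neither was called.

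*Nags*, which makes the obligatory activator of *Cps1*, had a log2 difference of -0.27 (adjusted p = 0.32). *Glud1*, which releases ammonia from glutamate, stood at -0.26 (adjusted p = 0.14), and *Slc25a15*, the ornithine carrier, at 0.06 (adjusted p = 0.86). Including *Arg1*, the groups did not overlap for 4 of the 10 genes, where 26% of all genes had groups that do not overlap.

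Of 8 genes for histidine, serine, glycine and threonine breakdown, 3 rose and none fell (median 0.17), *Hal* among them, where 4.33% of all genes rose. Without *Abcb11*-/- replicate 2 the call held for *Amdhd1* alone (*Hal* adjusted p = 0.060, *Gldc* 0.064). *Amdhd1*, a later enzyme of the histidine pathway, was at 7.62, 7.60 and 7.11 in WT and at 8.20, 8.27 and 8.35 in *Abcb11*-/- liver, 1.78-fold higher (log2 difference 0.83 ± 0.147, adjusted p = 0.017). *Gldc*, the decarboxylase of the glycine cleavage system, was at 8.60, 8.47 and 7.86 in WT and at 9.06, 9.25 and 9.30 in *Abcb11*-/- liver, 1.86-fold higher (0.89 ± 0.190, adjusted p = 0.033). The other histidine enzymes, *Uroc1* (0.16, adjusted p = 0.44) and *Ftcd* (-0.05, adjusted p = 0.80), did not pass the test, so the first step and the one before the last rose and the steps after each of these were not called.

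The pathway of *Tat* had 1 call among 11 genes (median -0.09). *Kmo*, the kynurenine hydroxylase of tryptophan breakdown, was 1.29-fold higher (0.36 ± 0.080, adjusted p = 0.036), and the enzymes that follow *Tat* in tyrosine breakdown, *Hpd* (-0.12), *Hgd* (-0.04) and *Fah* (-0.09), were not called. Of 11 genes for proline, ornithine and transamination, *Oat* among them, none passed the test (median -0.14). Of 12 methionine and cysteine genes 2 rose (median -0.16): *Sqor*, which oxidises sulfide, was 1.55-fold higher (0.63 ± 0.094, adjusted p = 0.0090), and *Bhmt2*, a homocysteine methyltransferase, 1.34-fold higher (0.42 ± 0.095, adjusted p = 0.039). None of 19 genes for branched-chain amino acids and lysine passed it (median -0.05).

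Over all these lists, 6 of 70 measured genes rose and none fell, which is 8.57% against 4.33% of all genes for rises, with a median log2 difference of -0.06. Without *Abcb11*-/- replicate 2, 9 of the 70 fell (12.9%, against 3.63% of all genes) and 2 rose, *Sqor* and *Amdhd1*. Among all 17097 genes, 888 rose without that array. Since that array was the highest mutant for most of these genes, its removal lowers their means by construction. The 9 were *Oat*, the proline dehydrogenases *Prodh* (-0.88) and *Prodh2* (-0.61), *Car5a* (-0.83), the sulfurtransferase *Mpst* (-0.66), the branched-chain aminotransferase *Bcat2* (-0.57), *Haao* of tryptophan breakdown (-0.56), *Gcdh* of lysine breakdown (-0.55) and *Mat1a*, which makes S-adenosylmethionine (-0.53). These other genes were named after their values were seen.

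**Figure D3:**
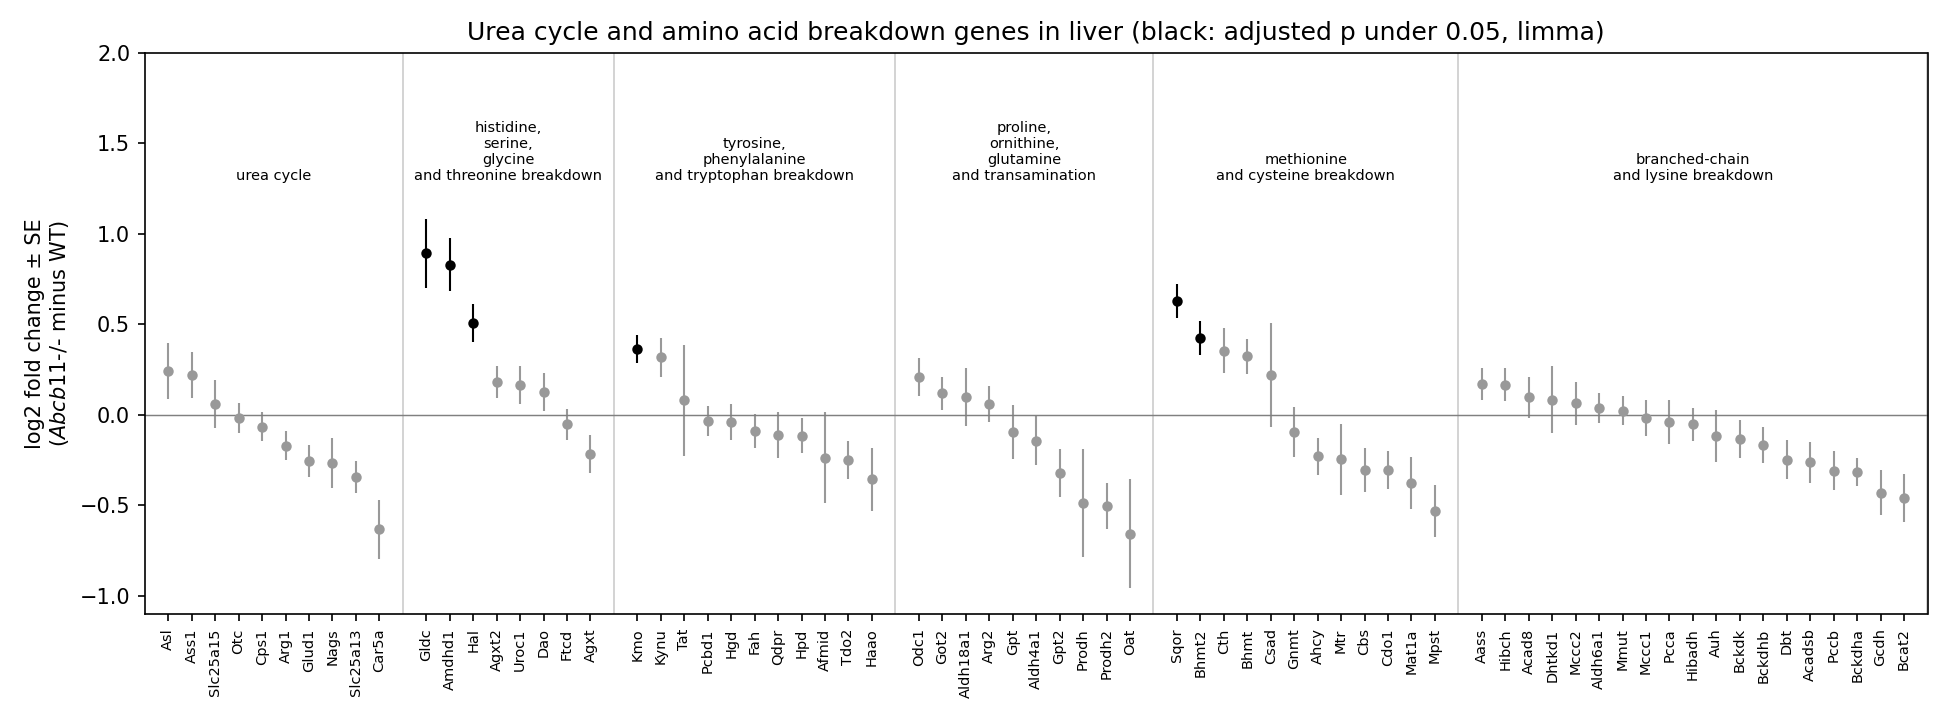
Log2 fold change, *Abcb11*-/- minus WT liver (y axis, bars are SE), of the 70 urea cycle and amino acid breakdown genes grouped by pathway. Black points passed an adjusted p under 0.05 in limma and all 6 of them lie above 0, and the urea cycle group has none.

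Of 26 regulators of these enzymes and of zonation, 5 fell and none rose, where 2.91% of all genes fell: the R-spondin receptors *Lgr5* and *Lgr4* (-0.43, adjusted p = 0.028), the ubiquitin ligases that take Wnt receptors off the cell surface, *Rnf43* (-1.31, adjusted p = 0.0032) and *Znrf3* (-0.81, adjusted p = 0.045), and the transcription factor *Tbx3* (-1.42, adjusted p = 0.0052). *Lgr5*, *Rnf43* and *Tbx3* also stood on the pericentral list, so these counts share genes. The factors that drive the hepatocyte programme and urea cycle genes were not called, *Hnf4a* at 0.10 (adjusted p = 0.70) and *Cebpa* at -0.59 (adjusted p = 0.080), nor was β-catenin itself (*Ctnnb1*, 0.02). Other Wnt pathway genes of the list were not called either, *Wnt2* (-1.17, adjusted p = 0.077), *Axin2* (-0.67, adjusted p = 0.087), *Rspo3* (-0.37, adjusted p = 0.13), *Tcf7l2* (-0.11), *Apc* (-0.10) and *Wnt9b* (0.11).

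Markers of other liver cells moved as well. Hepatocyte markers summed to 16.87 to 16.89 in WT and to 16.81 to 16.89 in *Abcb11*-/- liver, with 1 of 13 called lower. Neutrophil markers summed to 6.25 to 6.78 and to 7.51 to 9.10 (3 of 7 rose), and cholangiocyte markers to 5.72 to 5.94 and to 6.25 to 6.82 (2 of 6 rose). Kupffer cell and macrophage markers summed to 11.27 to 11.83 in WT and to 11.00 to 12.32 in *Abcb11*-/- liver (0 of 8), with a median relative to WT of -0.48, 1.03 and 0.28 in *Abcb11*-/- replicates 1, 2 and 3. None was called among stellate cell (11.68 to 11.89 and 11.68 to 12.28, 8 genes), endothelial (10.59 to 10.97 and 10.21 to 10.92, 8 genes) and lymphocyte markers (6.80 to 7.03 and 6.64 to 7.42, 7 genes). The part of these markers in the enzyme values was not tested.

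In the lung, 2 of the 8 enzymes were expressed, taken as a log2 value of at least 7 on at least 4 of the 6 arrays, which 29.9% of all genes reached. They were *Ass1* and *Oat*. *Ass1* supplies arginine from citrulline outside the liver, and *Oat* is found in many tissues. No member was called by limma for the mother over the stages, for PN0 against E18.5 or for E18.5 against E17.5, where 0, 0 and 10 of all genes were called (0%, 0% and 0.0585%). At an unadjusted p under 0.05, 867, 2098 and 2191 genes passed, and the fit had 2 residual degrees of freedom.

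*Oat* was at 9.38, 9.58 and 9.27 with a WT mother and at 9.51, 9.73 and 9.60 with an *Abcb11*-/- mother at E17.5, E18.5 and PN0. It was higher with an *Abcb11*-/- mother at each stage, by 0.13, 0.15 and 0.33 (0.21 ± 0.111 over the stages, SE, adjusted p = 0.93, interval -0.07 to 0.48, and 0.24 ± 0.146 without the E17.5 arrays). *Ass1* was at 8.04, 8.63 and 8.13 with a WT mother and at 8.35, 8.35 and 8.43 with an *Abcb11*-/- mother, and the order of the mothers changed from stage to stage. Over the stages its difference was 0.11 ± 0.154 (SE, adjusted p = 0.97, interval -0.27 to 0.49). It was 0.0096 ± 0.183 (SE) without the E17.5 arrays and -0.07 with the mean of all probe sets. That mean takes in a second *Ass1* probe set at 2.77 to 3.39 in lung, below the array medians of 3.63 to 3.68.

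*Asl* was dim, at 5.29 to 5.71, and *Tat* (2.61 to 3.27) and *Hal* (2.75 to 3.12) lay below the array medians of 3.63 to 3.68. None of these 3 genes reached the limit for expression on any lung array, at PN0 included.

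*Cps1*, *Arg1* and *Otc* had their highest lung value on the array that carried hepatocyte markers. *Cps1* was at 8.00 on that array, E17.5 with the *Abcb11*-/- mother, and at 3.06 to 3.70 on the other 5 arrays. *Otc* was at 4.44 there and at 2.90 to 3.21 elsewhere. *Arg1* was at 3.97, 6.39 and 5.05 with a WT mother and at 7.08, 6.46 and 6.19 with an *Abcb11*-/- mother.

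For *Cps1* and *Otc* a single array thus stood apart, while *Arg1* was above its lowest value of 3.97 on 4 other arrays too. At E17.5, *Cps1* and *Arg1* were 2 of the 4 enzymes whose brighter array reached 7 and were at least 2-fold higher with the *Abcb11*-/- mother (log2 differences 4.30 and 3.11), as were 1.43% of 5590 such genes, and none of the 4 was 2-fold lower (0.25% of such genes). On the same array all 11 hepatocyte markers of that brightness were at least 2-fold higher (albumin, *Alb*, 13.01 against 9.05, and alpha-fetoprotein, *Afp*, 12.28 against 8.76), as were all 8 skeletal muscle markers. The part of these cells in the values was not tested, and with 1 array per group there is no test at a stage.

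At E18.5, hepatocyte markers summed to 9.77 with the WT and to 9.81 with the *Abcb11*-/- mother, and *Arg1* differed by 0.08 between them. Neither of the 2 bright enzymes was 2-fold apart at E18.5 (0.165% of genes higher and 0.0366% lower) or at PN0 (0.942% and 0.517%). At PN0 the sums were 7.60 and 8.10 and *Arg1* differed by 1.14, *Cps1* by -0.08. *Arg1*, which macrophages also express, had no constant course over the stages: with a WT mother it changed by 2.41 from E17.5 to E18.5 and by -1.34 to PN0, with an *Abcb11*-/- mother by -0.62 and -0.27. Macrophage markers summed to 7.21 to 7.85 over the 6 lung arrays. The difference of *Arg1* with the mother was 1.44 ± 0.531 (SE, adjusted p = 0.93), and 0.61 ± 0.258 without the E17.5 arrays (adjusted p = 0.77).

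**Figure D4:**
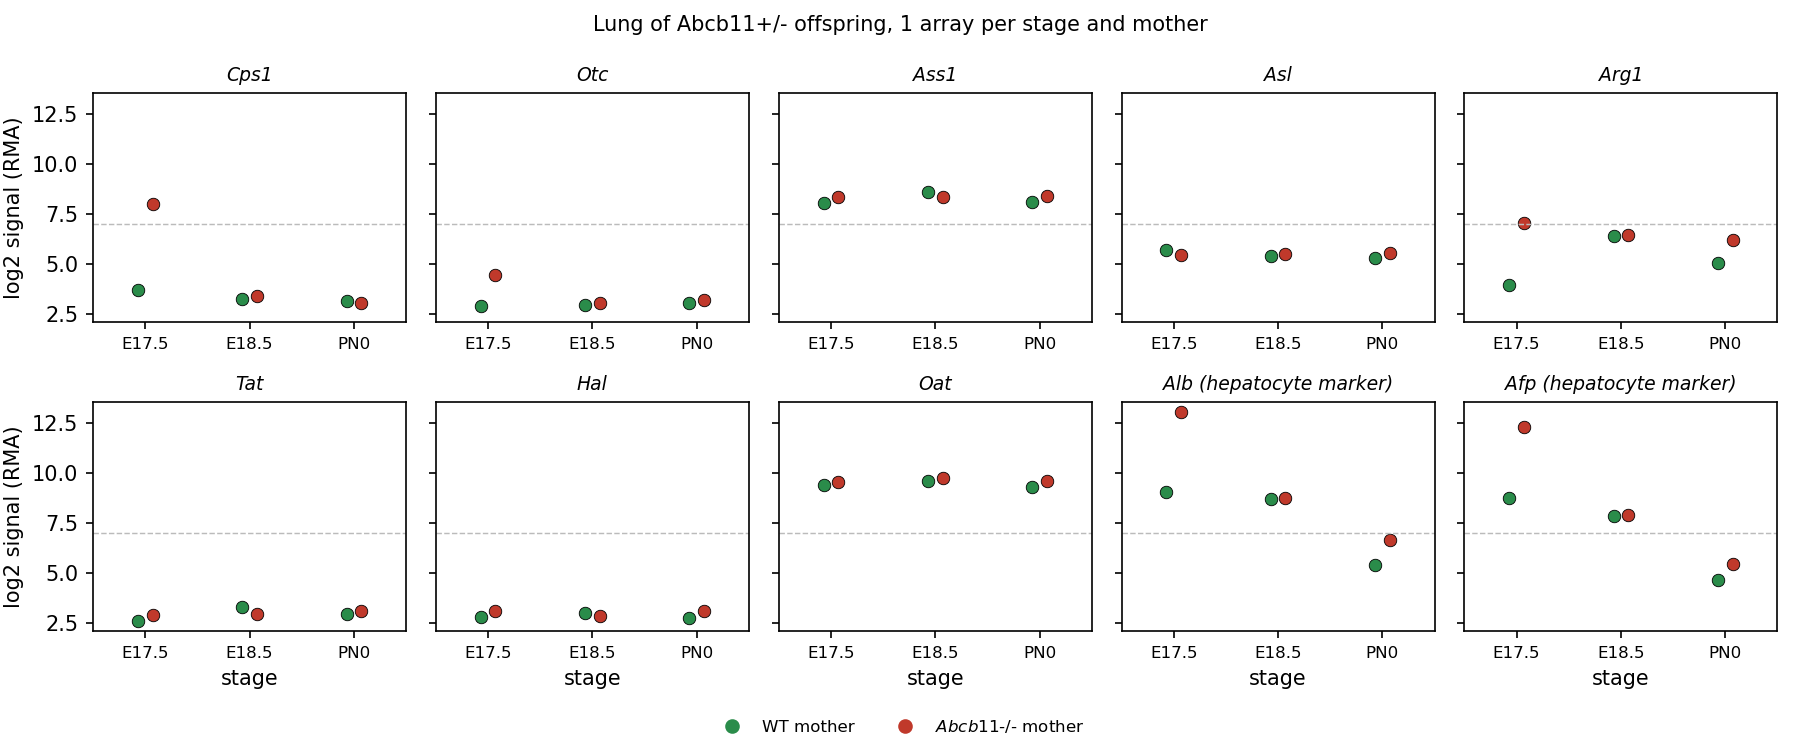
Log2 signal (y axis) of the 8 enzymes and of the hepatocyte markers *Alb* and *Afp* at E17.5, E18.5 and PN0 (x axis), 1 array per point, green for a WT and red for an *Abcb11*-/- mother. The dashed line marks a log2 value of 7. *Ass1* and *Oat* lie above it on all arrays, and the red E17.5 point of *Cps1*, at 8.00, stands far above the other 5, as do those of *Alb* and *Afp* above theirs.

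Of all 70 urea cycle and amino acid genes, 22 were expressed in the lung. At E17.5, 5 of 27 bright genes were at least 2-fold higher with the *Abcb11*-/- mother and none was 2-fold lower. Of all bright genes, 1.43% were higher and 0.25% lower by that much. The 5 were *Cps1*, *Arg1*, the homocysteine methyltransferase *Bhmt* (3.88), the cystathionine lyase *Cth* (1.39) and the glycine methyltransferase *Gnmt* (1.25). The E17.5 array of that mother also held the hepatocyte markers, whose part in these values was not tested. At E18.5, none of 23 differed by 1.5-fold. At PN0, 3 of 22 were at least 1.5-fold higher, *Cth* (0.72), and *Dbt* (0.69) and *Acadsb* (0.65) of branched-chain breakdown, and 2 lower, *Glud1* (-0.70) and *Ahcy* (-0.60). Of all such bright genes, 5.47% at E17.5, 1.08% at E18.5 and 6.25% at PN0 differed by 1.5-fold in either direction. These genes were named after their values were seen.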

How the data were processed

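Gene expression was measured on 12 Affymetrix mouse HT MG430 PM plate arrays, 6 of liver and 6 of lung. The authors deposited log2 values from robust multiarray averaging (RMA), and Partek 6.5 is named in the submitters' notes on processing. No detection p-value comes with them, and their precision is limited by how few arrays there are. Array medians were 3.15 to 3.18 in liver and 3.63 to 3.68 in lung, so levels were not compared between tissues. No 2 arrays held identical values.

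The platform annotation gave 1 gene for 28898 of the 45037 probe sets, several for 551 and none for 15588, and 28689 were matched to RefSeq by gene number. In each tissue a gene was read from its brightest probe set, which gave 17097 genes. Of the enzymes listed, *Ass1* and *Otc* had a second probe set.

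Groups were compared with the lmFit and eBayes functions of limma 3.58.1 (R 4.3.3), with Benjamini-Hochberg adjustment over all genes and a threshold of 0.05: by genotype in the liver, and by stage and mother over the 6 lung arrays, which assumes that arrays of all stages vary alike. At a single stage differences were only described. List sums are log2 of summed signals. The scripts were tested on simulated data. All enzymes of the list are named, with the 3 largest called rises and falls and the brightest markers of other lists, the urea cycle genes by value, and the 3 genes that followed a called enzyme most closely. The members and gene lists were chosen with earlier results of these data known. The results were recomputed with averaged probe sets, with all probe sets in 1 fit, with genes of a mean of 6 or more, after quantile normalization or median centring, with a trended, robust prior, with a block for replicate number, by the methods' t-test, without single arrays or the E17.5 arrays, and with other brightness limits.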

Additional observations from a re-analysis of the deposited data

Results flagged for a closer look

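In the lung, the difference of *Ass1* between mothers took opposite signs at different stages. The log2 difference, *Abcb11*-/- mother minus WT mother, was 0.3094 at E17.5, -0.2761 at E18.5 and 0.2953 at PN0. With 1 array for each stage and mother, the change of sign was not tested. Hepatocyte markers were raised at E17.5 with the *Abcb11*-/- mother. Their sums at E18.5 were 9.77 and 9.81 and at PN0 7.60 and 8.10 with a WT and an *Abcb11*-/- mother. Their part in the *Ass1* values was not tested.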

How the results depend on the processing

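The number of liver enzymes called (1, *Hal*) was also 1 with the mean of all probe sets, all probe sets in 1 fit, a minimum mean of 6, quantile normalization, median centring and a trended and robust prior. It was 0 with the replicate block, 0 to 1 when each array was left out, 2 (*Arg1* and *Hal*) by the methods' t-test and 0 by that test after Benjamini-Hochberg adjustment. *Hal* kept a log2 difference of 0.45 to 0.58 in all of these, with an adjusted p of 0.093 under the block and of 0.050 to 0.12 without each array other than *Abcb11*-/- replicate 1. Same-numbered WT and *Abcb11*-/- arrays had correlations of -0.17, -0.15 and -0.24 in their deviations over 6375 genes, so the numbers were not taken to pair the mice.

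The 10 pericentral markers that fell became 5 with the replicate block, 0 by the adjusted t-test and 4 to 12 when an array was left out. The 4 periportal markers that rose became 2 with the block, 0 by the adjusted t-test and 1 to 4 when an array was left out. The 0 that fell became 1 after quantile normalization, with the trended and robust prior and with the block. It became 2 by the methods' t-test and 0 to 1 when an array was left out. The 6 urea cycle and amino acid genes called, all higher, became 11 with a minimum mean of 6 (6 higher and 5 lower), 13 with a trended and robust prior (7 and 6), 1 with the block (1 and 0, *Sqor*), 21 by the methods' t-test (10 and 11), 1 by that test after adjustment (0 and 1) and 1 to 11 when an array was left out, so their upward direction did not hold in all fits. Over all genes, 740 higher and 498 lower became 429 and 242 with the block, 1685 and 1444 by the methods' t-test, 26 and 23 by that test after adjustment, and 315 to 888 and 177 to 621 when an array was left out. The cause of these shifts was not tested, except that leaving out an array leaves fewer samples. Calls other than these and that of *Oat* without *Abcb11*-/- replicate 2 did not change among the enzymes. Among the enzymes, signs turned for differences that were not called. *Tat* (0.08 with all arrays) ranged from -0.27, without *Abcb11*-/- replicate 2, to 0.33 when an array was left out, and was at -0.02 and -0.0033 without WT replicates 2 and 3. *Otc* (-0.02) ranged from -0.0533 to 0.0067, the latter without WT replicate 1.

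In the lung, 2 enzymes were expressed, and 1 with the mean of all probe sets, under which the *Ass1* difference with the mother (0.11) was -0.0694. That mean takes in a second *Ass1* probe set that lay below the array medians. No enzyme was called under any alternative, while the calls over all genes ranged from 0 to 1 for the mother, 0 to 87 for PN0 against E18.5 and 0 to 197 for E18.5 against E17.5. The lung arrays carry no replicate numbers to block on, and the lung fit compared the mothers within stages.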
